A study of Mus musculus with 48 samples.

Results

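The cytochrome P450 genes of families 1 to 4 were taken as every gene whose symbol in the authors' tables reads Cyp, a family digit from 1 to 4, a subfamily letter and a number. This rule gave 75 of the 54532 genes in the count table, of which 3 belong to family 1, 48 to family 2, 7 to family 3 and 17 to family 4. RNA was sequenced from pieces of whole-thickness mouse intestine, 2 cm long, taken from the duodenum, the first stretch of the small intestine, and from the ileum, its last stretch. The mice were C57Bl/6J, untreated and of both sexes, and were killed on day 0 (birth), 2, 4, 6 or 8 or in week 2, 3 or 4. All groups share that strain and a housing that the labels call germ-free, and no label gives the microbial status of a single animal. The pups stayed with the dam until day 21 and were then given chow, so the week 2 pieces come from suckling mice, the week 3 pieces from the age of that change and the week 4 pieces from mice on chow. Each region and age has 3 samples. The day 6 samples numbered 3 were left out, which leaves 46 samples and 2 per region at day 6. The labels do not say whether each sample is a separate mouse, and p-values measure the spread between these samples.

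Cytochromes P450 are heme enzymes of the endoplasmic reticulum that put an oxygen atom into fatty acids, steroids, plant compounds and drugs, using electrons from the reductase Por and from cytochrome b5. Families 1 to 3 hold most of the enzymes that handle foreign compounds, and family 4 mostly oxidises fatty acids and related lipids. In the adult intestine the absorptive enterocytes carry them, as a first site of metabolism of what is eaten. Several members are standard target genes of receptors that sense small molecules: Cyp1a1 of the aryl hydrocarbon receptor (AhR), Cyp3a11 of the pregnane X receptor (PXR, gene Nr1i2), Cyp2b10 and Cyp2c29 of the constitutive androstane receptor (CAR, gene Nr1i3), and Cyp4a10 of the fatty acid receptor PPAR alpha (gene Ppara).

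Library totals ran from 16824021 to 65042327 estimated counts. Levels are given as CPM, counts per megacount of library after scaling by the trimmed mean of M values. Of 21986 genes that passed the filter on low counts, 47 are P450 members, and a member is called where the adjusted p of edgeR's quasi-likelihood test over all these genes is under 0.05. A pancreas and duodenum gene, Pdx1, averaged 11.4 to 16.8 CPM in the duodenum groups and at most 2.43 CPM in the ileum groups. Several libraries stood apart. The ileal marker genes summed to 109.7 CPM in ileum week 4 no. 1, against 2000 and 2303 CPM in the other week 4 ileum libraries, and its level of the ileal bile acid binding gene Fabp6 was 41.7 CPM against 1256 and 1936 CPM. Ileum day 0 no. 2 held 6.51 CPM of Pdx1. In the duodenum Pdx1 was at 2.41 CPM in day 0 no. 1, 3.99 CPM in week 2 no. 2 and 1.81 CPM in week 4 no. 2. The last of these lay below ileum week 4 no. 1 and no. 3, at 2.21 and 2.87 CPM. The ileal marker genes summed to 30.44 CPM in duodenum day 0 no. 1 and 31.97 CPM in duodenum week 2 no. 2. The female-specific RNA Xist and the Y-linked gene Ddx3y were both above 20 CPM in duodenum day 0 no. 2 and no. 3. Of the other 44 libraries 30 passed that level for Xist only and 14 for Ddx3y only, and all libraries of day 6, day 8 and week 4 were among the 30. Sex was therefore not balanced over age. In bulk tissue, fewer cells of a type and less RNA per cell cannot be told apart.

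The P450 members together took a small share of the RNA until week 2 and a several-fold larger share from week 3. In the duodenum the share of all counts was 0.101% ± 0.0081 (SD, n = 3) at day 0, 0.0554% ± 0.0079 (n = 2) at day 6 and 0.104% ± 0.022 (n = 3) at week 2. It then stood at 0.614% ± 0.138 at week 3 and 0.573% ± 0.094 at week 4 (n = 3 each). In the ileum it was 0.078% ± 0.0084 at day 0 and 0.0748% ± 0.00091 at week 2, then 0.339% ± 0.083 at week 3 and 0.241% ± 0.087 at week 4. The lowest week 3 or week 4 library of either region, at 0.171%, lay above the highest library of any earlier age, at 0.136%.

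**Figure D1:**
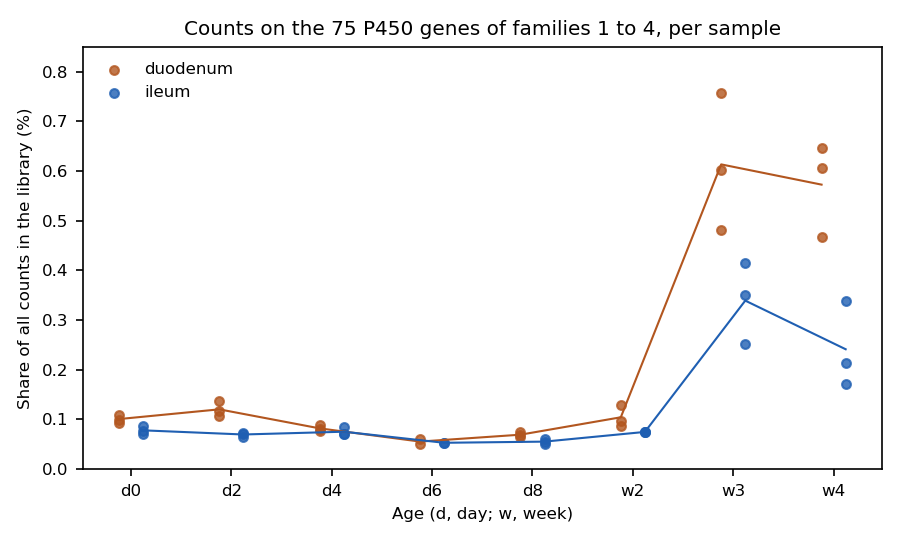
Share of each library's counts that fell on the 75 P450 members, in percent, by age, for duodenum and ileum; points are single libraries and lines join the group means. The week 3 and week 4 libraries of both regions, from 0.171% to 0.757%, lie above all earlier ones.

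The genes behind that share also changed. At day 0 Cyp3a13, an intestinal family 3 enzyme, gave 30.5% of the member counts in duodenum and 34.7% in ileum, followed by the fatty acid epoxygenase Cyp2j6 with 20.1% and 18.5%. At week 3 Cyp3a11 led in the duodenum with 29.8% and Cyp3a13 followed with 21.1%. In the ileum Cyp3a13 with 22.1% and Cyp4f14, a fatty acid and leukotriene hydroxylase, with 21.6% led at week 3. Levels were also taken per kilobase of the annotated transcript with the longest coding sequence. On that measure the highest week 3 levels in duodenum were Cyp3a11 at 858, Cyp3a13 at 463 and Cyp4f14 at 214 CPM per kilobase. In the ileum they were Cyp4f14 at 327, Cyp3a13 at 247 and the Cyp2d family member Cyp2d26 at 169 CPM per kilobase. That transcript of Cyp3a11 has 2344 bases and all its exons together 5093, while Cyp3a13 has 2956 by both. The order of Cyp3a11 and Cyp3a13 therefore depends on the length taken.

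Age changed most of the tested members. In duodenum 40 of 47 were called for an effect of age over the 8 ages, against 67.4% of all genes tested, and in ileum 41 of 47 against 58.7%. From day 0 to week 4, 30 members were called in the duodenum, where 40.5% of all genes were: 24 rose (20.4% of all genes did) and 6 fell (20.1%). For the ileum the count was 34, against 41.9% of all genes: 23 rose (21.5%) and 11 fell (20.4%). The median log2 fold change from day 0 to week 4 over the 47 members was 1.17 in duodenum and 1.21 in ileum, beside -0.02 and 0.08 over all genes tested. The 21 members that rose in both regions include the named drug-metabolising genes Cyp1a1, Cyp2b10, Cyp2c29, Cyp2c55 and Cyp3a11, and Cyp1b1, Cyp2c23, Cyp2c70, Cyp2w1 and Cyp4f17 fell in both. In duodenum the call of Cyp2c23 was lost in 8 alternatives, among them the replicate block (adjusted p 0.0523 to 0.131), and that of Cyp4f17 in 7 (0.0547 to 0.146). In ileum the call of Cyp1b1 was lost in 3 (0.0608 to 0.0892).

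**Figure D2:**
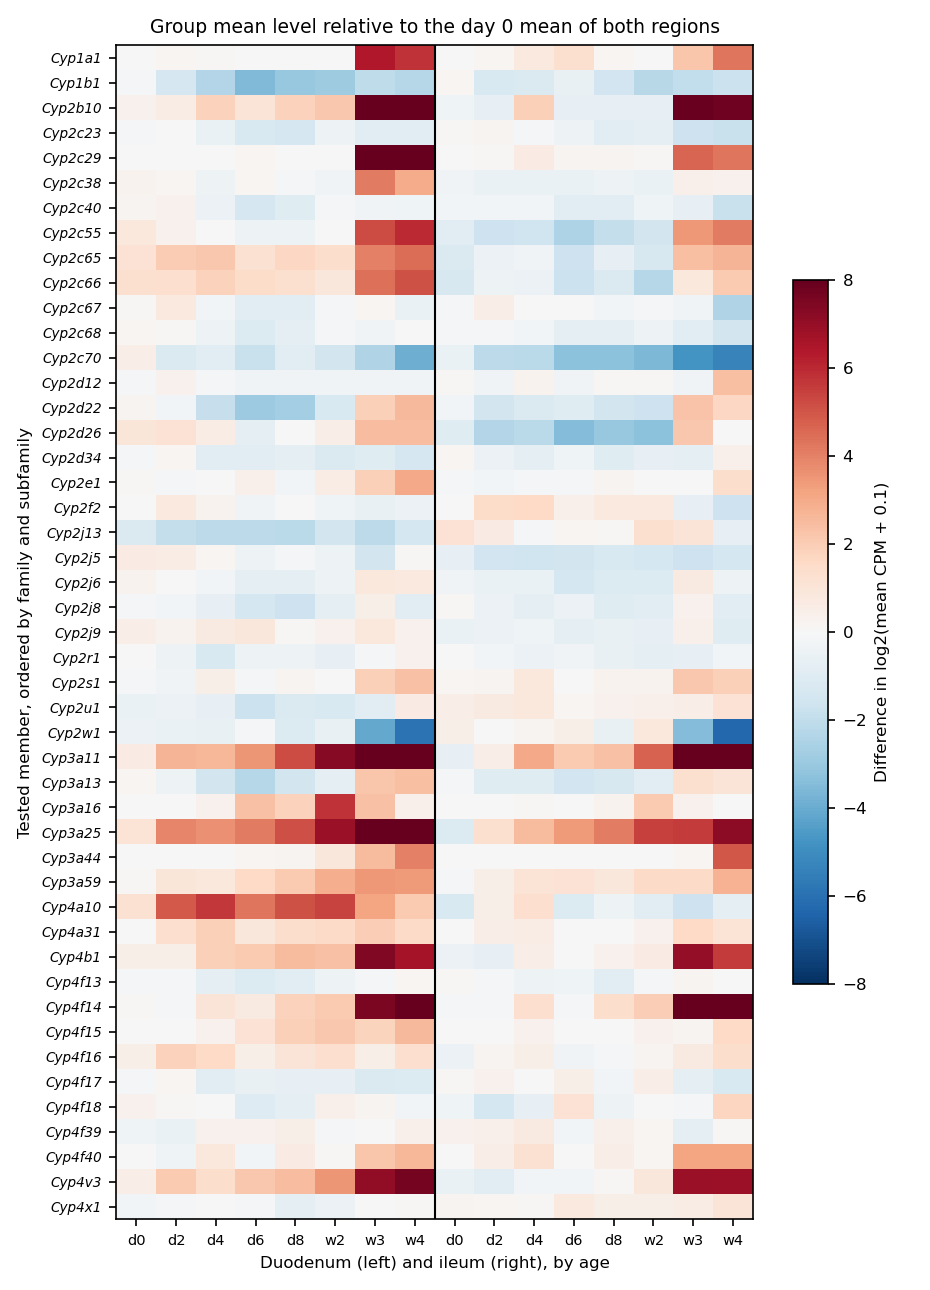
Tested members by group; colour is log2 of the group mean CPM plus 0.1 minus the mean of that quantity over both regions at day 0, with the scale clipped at 8 in each direction. The week 3 and week 4 columns hold most of the deep positive colour, and Cyp2w1, Cyp2c70 and Cyp1b1 run the other way.

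The step from week 2 to week 3 held most of the rise. In the duodenum 24 members were called, against 18.3% of all genes: 20 rose (7.7% of all genes rose) and 4 fell (10.6%). For the ileum the count was 26, against 26.8%: 20 rose (12.9%) and 6 fell (13.9%). The median log2 fold change over the members was 0.62 in duodenum and 0.34 in ileum, beside 0.03 in both over all genes. The same 18 members rose in both regions, which is 18 of 20 on each side: Cyp1a1, Cyp2b10, Cyp2c29, Cyp2c38, Cyp2c55, Cyp2c65, Cyp2c66, Cyp2d22, Cyp2d26, Cyp2j6, Cyp2j8, Cyp2s1, Cyp3a11, Cyp3a13, Cyp4b1, Cyp4f14, Cyp4f40 and Cyp4v3. For 23 of the 24 members called in duodenum, and 25 of the 26 in ileum, no week 3 library overlapped a week 2 library. These shares, 95.8% and 96.2%, were close to those over all genes called, 97.3% and 96.2%. Within week 3, library no. 2 held the highest level of 15 of these 18 members in the duodenum and of 15 in the ileum. Markers of enterocytes rose in sum over the same step. The summed level of 8 of 8 enterocyte genes averaged 9740 CPM at week 2, then 13890 CPM at week 3 in duodenum, and 6830 and 17920 CPM in ileum. Fabp1, which is on that list, was not called in either region. Markers of hepatocytes, the cell type best known for these enzymes, moved the other way in sum. In duodenum 7 of 7 genes found summed to 40.1 to 49.9 CPM at week 2 and 3.10 to 3.89 CPM at week 3. In ileum they summed to 64.0 to 82.9 CPM and 1.59 to 4.24 CPM. Serpina3k was at 0 in all of these groups, Ahsg in all but the week 3 ileum, and Fgb in the week 2 duodenum only. Fgb in duodenum and Ahsg in ileum thus went against the sum. The part of these cell types in the P450 levels was not tested.

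**Figure D3:**
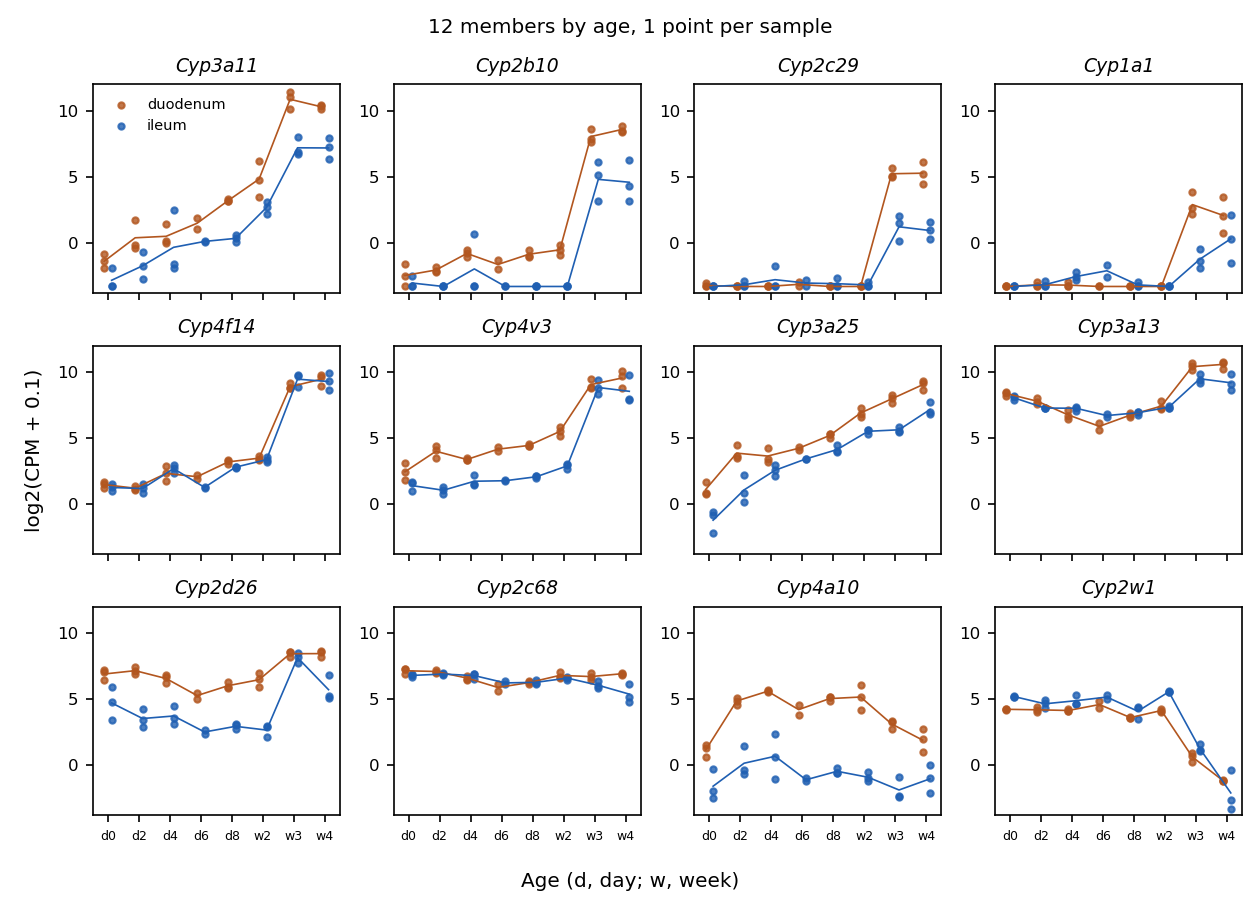
Levels of 12 members by age, as log2 of CPM plus 0.1; points are single libraries and lines join the group means of duodenum and ileum. Cyp2b10, Cyp2c29, Cyp1a1 and Cyp4f14 are low until week 2 and higher at week 3 and week 4, while Cyp3a11 and Cyp3a25 climb from day 0, Cyp4a10 is high in duodenum up to week 2, and Cyp2w1 falls.

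Family 1 was represented by low levels. Cyp1a1, the best known AhR target, was at 0 in all 3 duodenum libraries of week 2 and reached 4.41, 6.21 and 14.2 CPM at week 3, then 10.7, 1.53 and 4.07 CPM at week 4. Against the 3 counts that a group at 0 allows over its libraries, its week 3 level in duodenum was at least 279-fold higher than at week 2 (edgeR adjusted p = 8.9e-07). In the ileum all 3 libraries of week 2 were at 0 and those of week 3 held 0.16, 0.29 and 0.627 CPM (adjusted p = 0.00398). Ileum week 4 libraries held 1.11, 0.248 and 4.28 CPM and overlapped those of the duodenum (log2 difference -1.59 ± 0.71 SE, adjusted p = 0.0939). That difference passed the threshold with the replicate block, without duodenum week 4 no. 2 or without ileum week 4 no. 3, with a lowest adjusted p of 0.00957 over its fits. Cyp1a2, the neighbouring AhR target known from liver, had at most 14 counts in any library and was not tested.

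Cyp1b1, an AhR target of connective tissue cells, was already present at birth and fell. It held 0.665, 0.911 and 1.51 CPM in duodenum at day 0 and 0.106, 0.109 and 0.0219 CPM at week 2, a log2 change of -3.77 ± 0.79 (adjusted p = 0.000407). In ileum its mean went from 1.35 CPM at day 0 to 0.173 CPM at week 2 (-2.88 ± 0.69, adjusted p = 0.00345). The mean summed levels of fibroblast and endothelial markers were lower at week 2 too. In duodenum 5 of 5 fibroblast genes summed to 103.6 to 186.8 CPM at day 0 and 36.8 to 77.1 CPM at week 2, and 5 of 5 endothelial genes to 99.03 to 194.7 and 20.01 to 29.47 CPM. In ileum the fibroblast sum was 209.9 to 304.5 and 80.9 to 211.8 CPM, which overlap, and the endothelial sum 46.01 to 204.5 and 46.36 to 64.77 CPM, which also overlap. Mean fibroblast sums in ileum were 248.3 CPM at day 0, then 128.1, 320.7, 457.7 and 322.5 CPM over days 2 to 8. Mean endothelial sums there were 134.1 CPM at day 0, then 64.59, 54.76, 90.48 and 57.16 CPM. Cyp1b1 held 0.6651, 1.211 and 2.161 CPM in ileum at day 0 and 0.2199, 0.2374 and 0.5659 CPM at day 8. At day 6 its ileum libraries held 1.173 and 0.3236 CPM. In duodenum both mean sums were under those of day 0 at days 4, 6 and 8. None of the marker genes was at 0 throughout a group, and their part in the fall was not tested.

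Among family 2, Cyp2b10 and Cyp2c29, the classic CAR targets, went from near 0 to abundant in the duodenum. Cyp2b10 held 0.779, 0.435 and 0.591 CPM in the duodenum at week 2, then 204, 389 and 235 CPM at week 3, then 350, 344 and 472 CPM at week 4. The log2 change from week 2 to week 3 was 8.83 ± 0.99 (adjusted p = 2.13e-07), a 459-fold ratio of means. In the ileum it was at 0 in all week 2 libraries and at 8.76, 69.6 and 35.2 CPM at week 3, at least 1445-fold higher than the 3 counts that a group at 0 allows. The week 4 ileum libraries ranged widely, with 76.8 CPM in no. 1, the library with low ileal markers, against 9.06 and 19.5 CPM. Cyp2c29 was at 0 in the week 2 duodenum libraries and at 31.9, 49.4 and 33.3 CPM at week 3, at least 1291-fold higher. Its ileum levels were lower, at 1.00, 3.96 and 2.65 CPM at week 3.

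The Cyp2c genes lie in a row on chromosome 19, where 14 of the 15 members of the subfamily span positions 39007019 to 40187333 of GRCm38. Of these 14, 9 were tested. Neighbours did not share one course. At the left end Cyp2c55, Cyp2c65, Cyp2c66, Cyp2c29 and Cyp2c38, enzymes of drugs and unsaturated fatty acids, all rose from week 2 to week 3 in both regions, whereas Cyp2c67, Cyp2c68, Cyp2c40 and Cyp2c70 did not rise in either. The ileum call of Cyp2c38 rests on little, a mean of 0.0938 CPM at week 3 against 0 at week 2 (adjusted p = 0.012, and up to 0.0872 in the 2 alternatives that lost the call). Cyp2c55 held 4.32, 1.05 and 2.19 CPM in duodenum at week 2 and 115, 123 and 62.5 CPM at week 3 (log2 change 5.32 ± 0.37, adjusted p = 9.59e-14). Cyp2c68, in contrast, held 135, 95.9 and 104 CPM at week 2, then 102, 126 and 86.6 CPM at week 3, which overlap (-0.09 ± 0.21, adjusted p = 0.822). In the ileum Cyp2c68 went from 87.0, 97.0 and 103 CPM to 61.6, 81.2 and 56.1 CPM (-0.53 ± 0.21, adjusted p = 0.0575, and 0.0222 to 0.0435 in the 5 alternatives that called it).

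The stretches upstream of 4 of these genes and of Cyp1a1 are shown because they stand before genes of different course. They are the 250 bases before the start in RefSeq, build GRCm38.p6, 5′ to 3′ in the direction of the gene, with motif matches on either strand in capitals. Positions of the start count back from the first transcribed base. The Cyp2c stretches are chr19:39006769-39007018 (plus strand) for Cyp2c55, chr19:39060756-39061005 (plus) for Cyp2c65, chr19:39113648-39113897 (plus) for Cyp2c66 and chr19:39741102-39741351 (minus) for Cyp2c68, and that of Cyp1a1 is chr9:57697363-57697612 (plus).
Cyp2c55: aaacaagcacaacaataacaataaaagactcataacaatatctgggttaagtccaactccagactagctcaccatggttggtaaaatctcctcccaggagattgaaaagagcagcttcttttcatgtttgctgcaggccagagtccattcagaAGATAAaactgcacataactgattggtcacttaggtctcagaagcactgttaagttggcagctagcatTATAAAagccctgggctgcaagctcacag
Cyp2c65: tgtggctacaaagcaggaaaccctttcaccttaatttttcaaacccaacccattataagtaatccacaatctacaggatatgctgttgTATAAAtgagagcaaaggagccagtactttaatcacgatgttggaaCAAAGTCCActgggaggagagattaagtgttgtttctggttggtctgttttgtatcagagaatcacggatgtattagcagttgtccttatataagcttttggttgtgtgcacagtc
Cyp2c66: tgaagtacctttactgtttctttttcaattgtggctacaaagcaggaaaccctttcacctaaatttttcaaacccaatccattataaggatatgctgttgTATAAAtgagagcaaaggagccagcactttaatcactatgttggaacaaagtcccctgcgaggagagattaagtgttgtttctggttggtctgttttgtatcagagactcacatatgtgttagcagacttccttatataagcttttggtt
Cyp2c68: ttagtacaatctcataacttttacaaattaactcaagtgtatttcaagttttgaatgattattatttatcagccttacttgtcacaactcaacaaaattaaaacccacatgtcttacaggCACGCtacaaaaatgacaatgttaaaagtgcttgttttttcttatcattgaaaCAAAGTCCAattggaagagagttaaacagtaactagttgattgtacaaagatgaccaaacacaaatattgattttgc
Cyp1a1: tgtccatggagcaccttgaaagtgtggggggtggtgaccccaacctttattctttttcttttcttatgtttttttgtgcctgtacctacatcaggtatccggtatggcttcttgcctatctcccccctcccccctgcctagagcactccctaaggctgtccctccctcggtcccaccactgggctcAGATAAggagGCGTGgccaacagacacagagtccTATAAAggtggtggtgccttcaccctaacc

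The letters searched, on both strands, were TATAAA (the TATA box), CAAAGTCCA (letters bound by HNF4 factors), AGATAA (letters bound by GATA factors) and GCGTG (the core bound by AhR). The TATA box letters were in 34.8% of the 69 promoters of the 62 members that RefSeq's table holds, against 12.4% of all 32851 promoters. CAAAGTCCA was in 11.6% of member promoters against 0.384% of all, AGATAA in 21.7% against 9.99%, and GCGTG in 18.8% against 28.2%. Related genes share promoter sequence, so these promoters are not independent. CAAAGTCCA stood at -116 in Cyp2c65 and at -77 in Cyp2c68. Cyp2c66 held the same letters with 1 substitution, A9C counted from the first letter of the motif, at -104. Of the 7 tested members that hold CAAAGTCCA, 2 rose from week 2 to week 3 in both regions, Cyp2c65 and Cyp3a11, and 5 did not rise in either, namely Cyp2c40, Cyp2c67, Cyp2c68, Cyp2c70 and Cyp3a16. Cyp1a1 held GCGTG at -54, AGATAA at -64 and TATAAA at -30. A match describes letters and not binding.

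Cyp2c65 and Cyp2c66 are neighbours with 96.3% identical coding sequence, so the split of reads between them rests on the authors' quantification. In the duodenum Cyp2c65 went from 55.3, 26.9 and 37.0 CPM at week 2 to 255, 278 and 196 CPM at week 3 (log2 change 2.61 ± 0.40, adjusted p = 6.04e-06). Cyp2c66 went from 7.22, 5.69 and 7.75 CPM to 76.6, 90.3 and 65.8 CPM (3.49 ± 0.50, adjusted p = 2.04e-06). Both were called lower in the ileum at week 2 and week 4, and Cyp2c66 reached only 4.00, 10.2 and 5.02 CPM there at week 3. Cyp2c70, an enzyme that makes the muricholic bile acids in mouse liver, fell instead: duodenum libraries held 4.88, 9.93 and 13.4 CPM at day 0, then 0.365, 0.222 and 0.424 CPM at week 4 (-4.80 ± 0.49, adjusted p = 2.66e-10).

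The Cyp2d gene Cyp2d26 followed a different path in each region. In the duodenum it held 122, 61.2 and 90.7 CPM at week 2, then 371, 380 and 290 CPM at week 3 (log2 change 1.93 ± 0.45, adjusted p = 0.00162). In the ileum it first fell, from 10.5, 60.0 and 27.2 CPM at day 0 to 7.58, 4.11 and 7.32 CPM at week 2 (-2.36 ± 0.47, adjusted p = 0.000453, and 0.0695 with only those groups fitted), and then reached 209, 354 and 297 CPM at week 3 (5.50 ± 0.53, adjusted p = 3.76e-10). At week 4 the ileum libraries held 113, 32.7 and 37.7 CPM, lower than at week 3 (-2.23 ± 0.45, adjusted p = 0.000495). The highest of these was again ileum week 4 no. 1. Cyp2d22 rose from a mean of 2.45 to 21.8 CPM in duodenum and from 1.79 to 28.7 CPM in ileum between week 2 and week 3.

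Of the Cyp2j genes, epoxygenases of arachidonic acid, Cyp2j6 was the abundant one, with a dip before its rise. Its duodenum libraries held 184, 226 and 246 CPM at day 0, 150, 129 and 118 CPM at week 2, then 294, 397 and 278 CPM at week 3. The fall from day 0 to week 2 was called in both regions. With a library left out, that call was lost in 4 fits in duodenum (edgeR adjusted p 0.0556 to 0.0842) and in 4 in ileum (0.0766 to 0.139). The step to week 3 was 1.29 ± 0.23 in duodenum (adjusted p = 5.36e-05) and 1.79 ± 0.24 in ileum (adjusted p = 1.25e-07). Cyp2s1, an enzyme of surface epithelia, held 14.1, 13.1 and 13.3 CPM in duodenum at week 2 and 54.5, 56.0 and 44.2 CPM at week 3 (1.93 ± 0.21, adjusted p = 5.54e-09). Its ileum change was 1.85 ± 0.21 (adjusted p = 8.37e-09).

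Cyp2w1, known from fetal gut and colon tumours, fell in both regions. In the ileum it held 47.6, 46.9 and 44.8 CPM at week 2, 2.04, 1.93 and 2.89 CPM at week 3, then 0.0583, 0.652 and 0 CPM at week 4. The step to week 3 was -4.34 ± 0.30 in ileum (adjusted p = 4.61e-14) and -3.58 ± 0.30 in duodenum (adjusted p = 5.36e-12). Before that step it was higher in ileum, by 1.42 ± 0.26 on the log2 scale at week 2 (adjusted p = 0.000121). The mean level of Cyp2u1, a long-chain fatty acid hydroxylase, was higher in ileum too, by 1.61 ± 0.30 at week 2 (adjusted p = 0.000173). Cyp2r1, a vitamin D 25-hydroxylase, stayed between group means of 0.373 and 1.32 CPM and was called in none of the contrasts between single ages or regions. Cyp2e1, the ethanol oxidase of liver, never exceeded 1.34 CPM, and Cyp2f2, an enzyme of the lung, never exceeded 0.923 CPM.

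Family 3 holds the main drug-metabolising enzymes of the adult gut, and its members rose at different ages. Cyp3a11 was near 0 at birth and had its largest gain in CPM at week 3. Duodenum libraries held 0.166, 0.273 and 0.437 CPM at day 0, 74.9, 11.2 and 26.9 CPM at week 2, 2096, 2806 and 1131 CPM at week 3, then 1120, 1300 and 1418 CPM at week 4. The groups of day 0, week 2 and week 3 do not overlap: the log2 change was 6.91 ± 0.97 from day 0 to week 2 (adjusted p = 2.69e-06) and 5.74 ± 0.82 from week 2 to week 3 (adjusted p = 2.39e-06). In the ileum the levels were 0, 0 and 0.166 CPM at day 0, 6.58, 8.395 and 4.48 CPM at week 2, then 115, 263 and 104 CPM at week 3 (4.62 ± 0.78 for the last step, adjusted p = 2.31e-05).

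Cyp3a13 was the main P450 of the newborn gut and dipped before it rose. Duodenum libraries held 291, 353 and 345 CPM at day 0, 48.9 and 70.0 CPM at day 6, 217, 144 and 157 CPM at week 2, then 1364, 1631 and 1108 CPM at week 3. The fall from day 0 to week 2 was called (-0.93 ± 0.22, adjusted p = 0.00149), as was the rise to week 3 (2.99 ± 0.23, adjusted p = 1.44e-12). The summed level of the 8 enterocyte genes was 11860 to 12110 CPM in duodenum at day 0, 5104 to 6697 CPM at day 6 and 8657 to 11240 CPM at week 2, with none of the 8 at 0, and their part in the dip was not tested. The ileum libraries held 170, 154 and 157 CPM at week 2, then 669, 942 and 581 CPM at week 3 (2.19 ± 0.23, adjusted p = 7.35e-10). Cyp3a13 lies apart from the other Cyp3a members on chromosome 5, at 137892932 to 137921619, whereas the other 6 members span 145345279 to 146113287. Genes whose symbol ends in a letter fall outside the rule for members. Among them is Cyp3a41a, the nearest relative of Cyp3a11, at 95.2% coding identity.

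Cyp3a25 had most of its rise before week 2. It held 1.58, 3.10 and 1.68 CPM in duodenum at day 0 and 151, 97.2 and 112 CPM at week 2 (5.87 ± 0.42, adjusted p = 4.84e-13), and in the ileum 0.111, 0.543 and 0.451 CPM at day 0, then 47.4, 48.7 and 39.7 CPM at week 2 (6.91 ± 0.48, adjusted p = 3.63e-13). The next step was small in duodenum (1.07 ± 0.33, adjusted p = 0.0189) and 0.12 ± 0.33 in ileum (adjusted p = 0.839). The duodenum call was lost without the low-count filter and without week 2 no. 2, week 2 no. 3 or week 3 no. 2, with adjusted p up to 0.0954. Cyp3a59 is 97.5% identical to Cyp3a25 in coding sequence, and its own counts, under 2 CPM in every group mean, cannot be separated from it with certainty. Cyp3a16, a fetal and neonatal form, peaked at week 2: it was at 0 in the day 0 duodenum libraries, at 9.46, 3.01 and 3.55 CPM at week 2 and at 0.681, 0.314 and 0.231 CPM at week 3 (-3.66 ± 0.63, adjusted p = 7.32e-05). Cyp3a44 held 2.97, 4.87 and 1.40 CPM in the week 4 ileum, with 1 library above 0 at any earlier ileum age. In duodenum its mean was 0.0854 CPM at week 2, 0.484 CPM at week 3 and 1.55 CPM at week 4. The step to week 3 was called there (2.51 ± 0.86, adjusted p = 0.047), a call lost in 8 alternatives (0.0575 to 0.535).

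In family 4, Cyp4f14 held 9.95, 12.5 and 10.5 CPM in duodenum at week 2 and 430, 558 and 436 CPM at week 3 (5.44 ± 0.30, adjusted p = 3.68e-16). The ileum followed the same course, from 8.75, 11.7 and 9.97 CPM to 472, 892 and 818 CPM (6.16 ± 0.31, adjusted p = 1.75e-17). Of all members in this step it had the smallest adjusted p in each region. Cyp4b1, an enzyme of fatty acids and of some protoxins, went from 4.85, 2.36 and 3.05 CPM to 131, 127 and 99.4 CPM in duodenum (5.12 ± 0.36, adjusted p = 9.64e-14). In ileum it went from 1.17, 0.827 and 1.05 CPM to 43.5, 128 and 98.9 CPM (6.48 ± 0.39, adjusted p = 1.13e-15). Cyp4v3, a fatty acid hydroxylase, held 55.2, 35.6 and 45.6 CPM in duodenum at week 2 and 471, 696 and 444 CPM at week 3 (3.56 ± 0.39, adjusted p = 9.07e-09). In the ileum the week 2 levels were lower, at 7.77, 6.04 and 8.08 CPM, and the week 3 levels were 316, 671 and 435 CPM (6.02 ± 0.45, adjusted p = 5.07e-13).

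Cyp4a10, the PPAR alpha target that hydroxylates fatty acids, was high in the duodenum between day 2 and week 2. It held 1.41, 2.32 and 2.72 CPM at day 0, 50.9, 47.2 and 45.5 CPM at day 4, 67.3, 18.1 and 36.0 CPM at week 2, then 9.69, 9.59 and 6.57 CPM at week 3. It rose from day 0 to week 2 (4.23 ± 0.62, adjusted p = 3.91e-06) and fell to week 3 (-2.23 ± 0.56, adjusted p = 0.00349, and 0.108 with all 48 samples). No ileum library passed 5.06 CPM, the week 2 difference between ileum and duodenum was -6.52 ± 0.72 (adjusted p = 9.27e-08), and the same steps there were 0.68 ± 0.89 (adjusted p = 0.704) and -1.14 ± 1.01 (adjusted p = 0.443). The near-identical Cyp4a32, at 97.2% coding identity, had at most 14 counts in a library, as had Cyp4a14 with 13. Cyp4f16, in the same cluster on chromosome 17 as Cyp4f14, fell in duodenum, where libraries held 172, 128 and 153 CPM at week 2, then 71.0, 85.1 and 90.1 CPM at week 3 (-0.88 ± 0.23, adjusted p = 0.00556). In the ileum it held 63.5, 61.75 and 79.7 CPM at week 2, then 76.75, 112 and 106 CPM at week 3, which overlap (0.52 ± 0.23, adjusted p = 0.0943, and 0.0425 to 0.0472 in the 2 alternatives that called it). Cyp4f13 was called in no step between ages and had group means between 17.3 and 42.9 CPM.

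**Figure D4:**
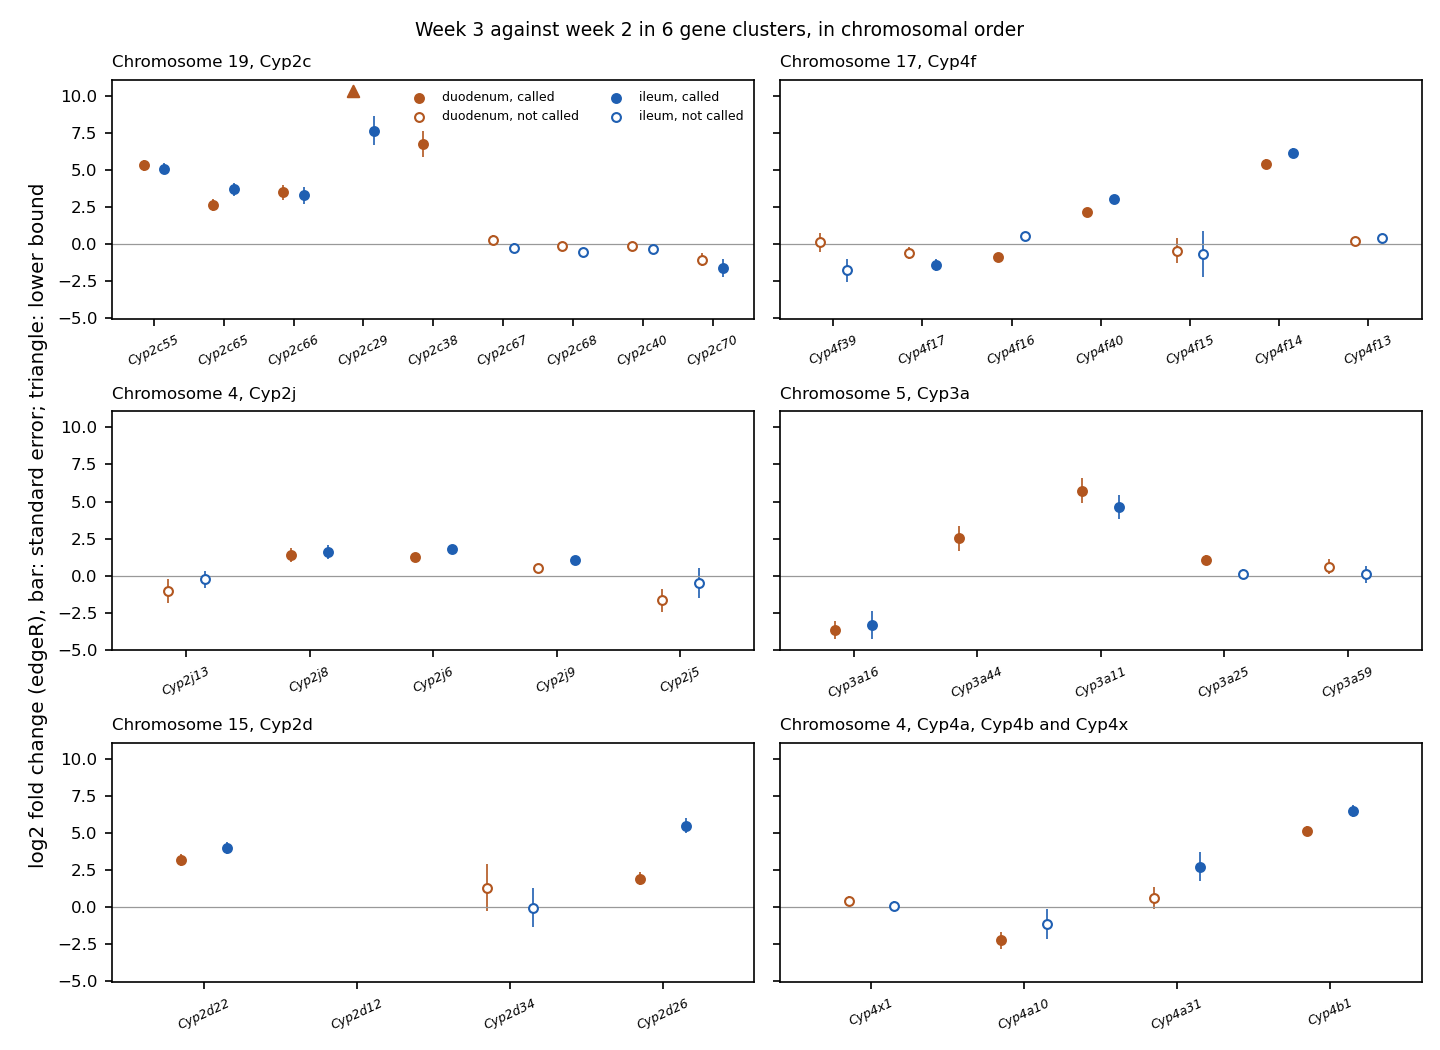
Log2 fold change from week 2 to week 3 of members in 6 genomic clusters, in their order along the chromosome, for duodenum and ileum; filled points were called, open points were not, and triangles are lower bounds against a group at 0. No point is drawn for Cyp2d12, or for Cyp2c38 and Cyp3a44 in ileum, where a group was at 0 and gave no bound. In the Cyp2c and Cyp3a clusters, members that rose stand beside members that did not.

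The other steps moved fewer members. From day 0 to week 2, 17 were called in duodenum, against 23.5% of all genes: 11 rose (12.1% of all genes) and 6 fell (11.3%). For the ileum it was 13, against 12.3%: 7 rose (6.43%) and 6 fell (5.92%). All 7 that rose in ileum also rose in duodenum, namely Cyp3a11, Cyp3a16, Cyp3a25, Cyp3a59, Cyp4b1, Cyp4f14 and Cyp4v3, and no member of family 2 was called higher in either region. The ileum call of Cyp4b1 was lost in 10 alternatives, among them the replicate block and the omission of any of the 6 libraries (adjusted p 0.0507 to 0.133), and that of Cyp4v3 in 2 (0.0569 to 0.0789). From week 3 to week 4, 8 members were called in the duodenum, against 12.7% of all genes: 4 rose (7.75%) and 4 fell (4.96%). The 8 fell to 3 without duodenum week 4 no. 2, to 4 without duodenum week 3 no. 1 and to 5 without duodenum week 4 no. 3. Without duodenum week 4 no. 2, all genes called fell from 2794 to 1623. For the ileum the count of members was 15, against 16.1% of all genes: 5 rose (8.26%) and 10 fell (7.81%). Only 4 were called in a fit to those 6 libraries alone, where all genes called fell from 3534 to 1300.

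Between regions, the P450 genes that differed were mostly lower in the ileum. Over all ages 30 members differed, against 62.1% of all genes: 10 were higher in ileum (31.9% of all genes were) and 20 lower (30.2%). At day 0, 11 differed, against 6.1%: 3 higher (2.97%) and 8 lower (3.14%), but only 4 without ileum day 0 no. 1 and 7 without duodenum day 0 no. 3. Without ileum day 0 no. 1, all genes called fell from 1342 to 513. At week 2, 24 differed, against 22.4%: 6 higher (10.6%) and 18 lower (11.8%); the count was 16 without duodenum week 2 no. 1. At week 4, 26 differed, against 28.4%: 4 higher (14.5%) and 22 lower (13.9%). The median log2 difference at week 4 was -1.04 over the members and 0.08 over all genes. A fit to the 6 week 4 libraries alone called 16 members, and 2366 of all genes in place of 6234.

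All 10 tested Cyp2c members were called lower in the ileum at week 4 with all 46 libraries. Alternatives ended the call of Cyp2c23 in 5 cases (adjusted p 0.0504 to 0.224), of Cyp2c70 in 4 (0.0508 to 0.105) and of Cyp2c40 in the fit to those 6 libraries alone (0.095). Cyp2c29 differed most among them, at -4.50 ± 0.54 (adjusted p = 1.68e-06), and Cyp2c66 by -3.03 ± 0.49 (adjusted p = 3.76e-05). Cyp2b10 differed by -3.48 ± 0.73 (adjusted p = 0.00148, and 0.0551 in the fit to those 6 libraries) and Cyp3a11 by -3.00 ± 0.72 (adjusted p = 0.00294). No ileum library of week 4 reached the lowest duodenum library for either: 76.8 against 344 CPM for Cyp2b10 and 243 against 1120 CPM for Cyp3a11. Ileum week 4 no. 1, the library with low ileal markers, held the highest level of 13 of the 18 members that rose at week 3 in both regions. Without it the comparison called 27 members.

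Other members were not called between regions at that age. Cyp4f14 differed by -0.13 ± 0.25 at week 4 (adjusted p = 0.726), Cyp2s1 by -0.42 ± 0.21 (adjusted p = 0.121) and Cyp4v3 by -0.81 ± 0.36 (adjusted p = 0.0822). Cyp4v3 passed the threshold with the replicate block, without duodenum week 4 no. 1 or without ileum week 4 no. 1 (lowest adjusted p over its fits 0.000175). Cyp4f18, a hydroxylase of neutrophils and other leukocytes, was higher in ileum at week 4 by 2.03 ± 0.51 (adjusted p = 0.00348), with ileum libraries at 0.757, 3.44 and 3.88 CPM. Leukocyte markers, 5 of 5 found, summed to 125 to 294 CPM in those ileum libraries and 57.96 to 70.35 CPM in the duodenum ones. Their part in that difference was not tested.

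**Figure D5:**
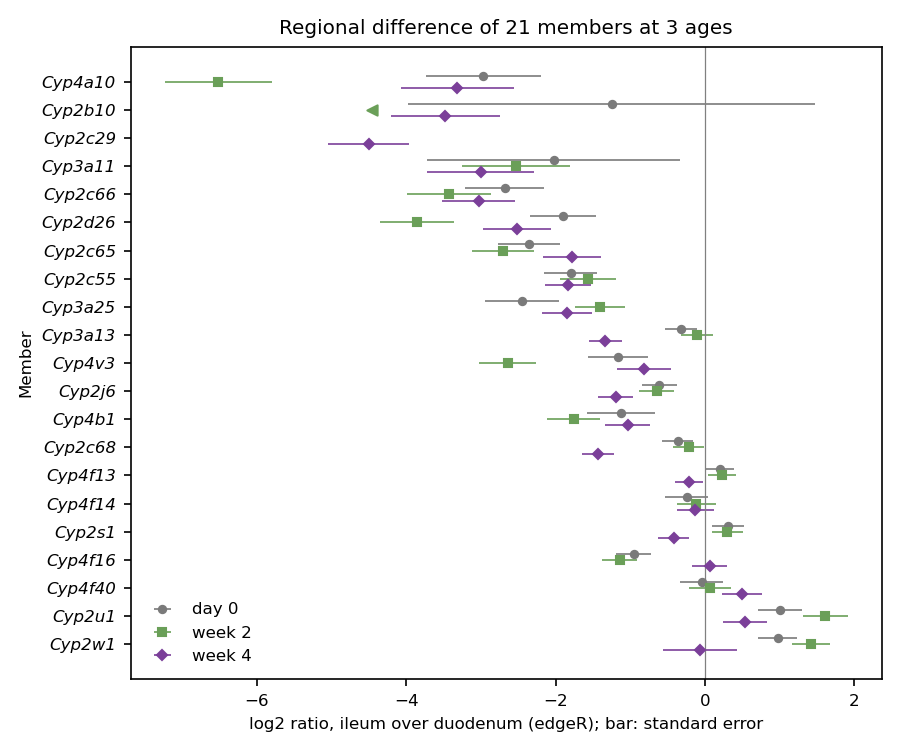
Log2 difference between ileum and duodenum for 21 members at day 0, week 2 and week 4, in the fit to all 46 libraries; points below 0 are lower in ileum, and triangles are bounds where a group was at 0. Most week 4 points lie below 0, with Cyp4f14 near it.

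The course over age differed between the regions for 16 members (region by age interaction), against 22.4% of all genes. That count was 10 without ileum day 6 no. 1 and 7 when the left-out day 6 samples were put back. With those samples back, all genes called fell from 4930 to 894. Within the step from week 2 to week 3 alone, the difference between regions was called for 3 members, against 1.38% of all genes. All 3 changed more positively in ileum, a direction called for 0.755% of all genes, while 0.623% were called the other way. They were Cyp2d26 (3.58 ± 0.63, adjusted p = 0.00155), Cyp4v3 (2.46 ± 0.52, adjusted p = 0.00754, and 0.126 with all 48 samples) and Cyp4f16 (1.40 ± 0.33, adjusted p = 0.0187). Cyp2d26 and Cyp4v3 started lower in the ileum at week 2, by -3.85 ± 0.49 and -2.64 ± 0.39. The call of Cyp4f16 was lost, with adjusted p up to 0.0668, without duodenum week 2 no. 1 or week 3 no. 1 and without ileum week 2 no. 1 or no. 2 or week 3 no. 2.

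Genes that serve or control these enzymes were read from lists. For each list below, the step from week 2 to week 3 is set beside all genes tested. Of these, 7.7% rose and 10.6% fell in duodenum, and 12.9% rose and 13.9% fell in ileum. Of 8 genes for electron supply and heme, 6 rose from week 2 to week 3 in both regions and Hmox1, which breaks down heme, fell in both. The list's median log2 change was 1.05 in duodenum and 1.25 in ileum. Por, the reductase that all these enzymes need, went from a mean of 84.2 to 165 CPM in duodenum (0.97 ± 0.23, adjusted p = 0.00152). Alas1, the first enzyme of heme synthesis, rose by 1.13 ± 0.21 (adjusted p = 8.33e-05).

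Of 16 receptors and regulators, 5 rose and 2 fell in duodenum over that step, and 7 rose and 2 fell in ileum, with medians of 0.26 and 0.51. Nr1i3, the receptor CAR, rose from a mean of 31.3 to 66.2 CPM in duodenum (1.08 ± 0.28, adjusted p = 0.00459). The gene of PXR, Nr1i2, went from 102 to 89.8 CPM (-0.18 ± 0.16, adjusted p = 0.503), and Ahr from 15.4 to 19.2 CPM (0.32 ± 0.21, adjusted p = 0.335, and 0.0337 without the day 4 samples). Hnf4g, a nuclear receptor of enterocytes, rose by 1.27 ± 0.23 (adjusted p = 7.35e-05), whereas its relative Hnf4a changed by -0.28 ± 0.16 (adjusted p = 0.246). Nr1h4, the bile acid receptor, fell by 0.91 on the log2 scale (adjusted p = 0.000924).

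Other known targets of the same receptors did not all rise in the step from week 2 to week 3. Of 8 further PXR and CAR targets, 7 rose and none fell in duodenum (median 1.67), and 6 rose and 1 fell in ileum (median 1.64). Gsta1, a glutathione transferase, rose most, from 1.66 to 298 CPM in duodenum (7.48 ± 0.68, adjusted p = 3.28e-10), and Ces2a, a carboxylesterase, from 26.2 to 134 CPM (2.35 ± 0.24, adjusted p = 5.6e-10). Of the 4 tested further AhR targets, 1 rose in duodenum, Nqo1 (1.71 ± 0.28, adjusted p = 1.52e-05), and none was called in ileum. Ahrr, the repressor of AhR, had means of 0.59 and 0.811 CPM at week 2 and week 3 in duodenum (adjusted p = 0.531). Of 10 PPAR alpha targets outside the P450 genes, none rose and 4 fell in duodenum, and 1 rose and 4 fell in ileum. The P450 target Cyp4a10 was also called lower in duodenum over that step and was not called in ileum. Cpt1a, which carries fatty acids into mitochondrial oxidation, fell from a mean of 482 to 230 CPM in duodenum (-1.07 ± 0.16, adjusted p = 2.57e-06). Ppara itself rose by 0.77 ± 0.21 (adjusted p = 0.00592, and 0.052 without duodenum week 3 no. 1). Of 13 tested P450 genes of higher families, 4 rose and 1 fell in each region. Cyp27a1, the sterol 27-hydroxylase, rose from 2.68 to 59.2 CPM in duodenum (4.47 ± 0.43, adjusted p = 4.51e-10).

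The remaining 28 members did not pass the filter on low counts and were not tested in the main fit. Of these, Cyp2b19, Cyp2c37, Cyp2c50, Cyp2d11 and Cyp2g1 had 0 counts in all 46 libraries, and the highest count in any library was 22, for Cyp2d10. All 4 Cyp2a genes and 4 of the 5 Cyp2b genes were among the untested. Of the tested members, 16 share over 90% of their coding sequence with another member, and their counts depend on how the authors' quantification divided shared reads.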

How the data were processed

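The 48 libraries are total RNA read on a NovaSeq, per the labels' protocols. The submitters' processing notes name STAR 2.6.1d, Salmon 0.14.2, DESeq2 1.30.1 and mm10, without their roles. The authors deposited estimated counts per gene, made with tximport per the file name, and these expected counts, rounded to whole numbers, were the input of every test. The authors also deposited a normalized signal per region. Its 40 columns equal the counts over 1 factor per column, and it served only for gene symbols. The authors' quantification decides how reads shared by near-identical genes are divided.

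Of 48 samples 46 were used. The day 6 samples numbered 3, which have no column in the authors' normalized tables, were left out. The day 4 samples have none there either and were kept, and a fit without them was run. The effect of putting the day 6 samples back is given. The filter filterByExpr, given the 16 groups, kept 21986 genes. After TMM scaling, edgeR 4.0.16 (R 4.3.3) fitted a robust quasi-likelihood model with 1 mean per group. Tests are two-sided, with Benjamini-Hochberg adjustment over all genes tested, separately for each comparison. A ± after a log2 fold change is its standard error. A fold against a group at 0 is a lower bound from 3 counts over the group, which covers counting error only. Gene positions are from GENCODE M21. Replicate libraries were compared by the chi-square of their counts per gene, and no pair was as close as sampling noise. The procedure was tested on simulated data.

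Per-sample values are given for a panel of 28 members, and other tested members are named where called in at least 1 comparison with a mean of at least 1 CPM in a group. The members, the panel and the lists were chosen with earlier results of these data known. Alternatives were RLE size factors, no filter, a mean count of at least 10, DESeq2 1.42.0, only the compared groups, a replicate block, all 48 samples, no day 4 samples, a sex index (Xist against Ddx3y) as covariate, and each library left out in turn. The replicate block was the sample number within each region for comparisons of ages. For comparisons of regions it was the age and number.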

Additional observations from a re-analysis of the deposited data

Results flagged for a closer look

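By the edgeR test of the region by age interaction, the course over age differed between duodenum and ileum for 16 of 47 members, against 22.4% of all genes. Of these 16, 15 reach a mean of 1 CPM in a group. Within the step from week 2 to week 3 it differed for 3 members, against 1.38% of all genes. With all 48 samples the members were 7 and 1, and all genes called were 894 and 104, in place of 4930 and 303. With 46 samples the adjusted p in that step was 0.00155 for Cyp2d26, 0.00754 for Cyp4v3 and 0.0187 for Cyp4f16. All 3 changed more positively in ileum. Over all ages the smallest adjusted p was that of Cyp3a13, at 8.51e-05, followed by Cyp4f16 at 0.000382, Cyp2d22 at 0.000709, Cyp4f18 at 0.000874 and Cyp4v3 at 0.000959. Cyp3a13 was at 330 CPM in duodenum and 264 CPM in ileum at day 0, and at 1545 and 613 CPM at week 4. Among the Cyp2c genes it was 0.00124 for Cyp2c68, 0.00203 for Cyp2c67, 0.0318 for Cyp2c23, 0.0328 for Cyp2c40 and 0.0378 for Cyp2c29. Cyp2c68 and Cyp2c67 fell in ileum from day 0 to week 4 and were not called in duodenum over the same span. The remaining interactions had an adjusted p of 0.0023 for Cyp2d26, 0.0195 for Cyp1a1, 0.0342 for Cyp3a25, 0.0401 for Cyp4b1 and 0.0466 for Cyp1b1.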

How the results depend on the processing

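Of 265 gene results, 187 kept their direction and their side of the threshold in every alternative run, and 5 of 2728 values with a library left out changed sign. The sign changes were in results near 0: Cyp2c68 from week 2 to week 3 in duodenum (log2 change -0.253 to 0.0695 over the fits that leave out a library), Cyp3a25 over the same step in ileum (-0.0209 to 0.189) and Cyp4f14 between regions at week 4 (-0.495 to 0.113). With only the compared groups in the fit, the members called fell from 15 to 4 for week 4 against week 3 in ileum, from 11 to 5 between regions at day 0 and from 26 to 16 between regions at week 4. All genes called fell in the same comparisons from 3534 to 1300, from 1342 to 909 and from 6234 to 2366. That fit has fewer samples. With all 48 samples the members called fell from 11 to 5 between regions at day 0, from 16 to 7 for the interaction and from 3 to 1 for the difference between regions in the step to week 3. All genes called fell there from 1342 to 539, from 4930 to 894 and from 303 to 104. The cause was not tested. With a library left out, the counts of members ran from 3 to 8 for week 4 against week 3 in duodenum, from 4 to 13 between regions at day 0 and from 10 to 19 for the interaction. Over the same fits all genes called ran from 1623 to 2683, from 513 to 1278 and from 3670 to 6509. The sex index as a covariate gave 6 members in place of 8 for week 4 against week 3 in duodenum and 14 in place of 15 in ileum. All genes called were 2806 in place of 2794 and 3381 in place of 3534. In the remaining comparisons and alternatives the count of members called stayed within 1.5 times. The fits that leave out a library used a grid of 11 dispersion values, which on all 46 libraries gave the same counts of members called.

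The sample numbers do not pair the samples by the labels. Same-numbered pieces of the 2 regions had a mean correlation of deviations of 0.16 and 17 of 23 pairs were over 0.1, while 21 of 23 pairs passed 20 CPM for the same sex gene or genes. Differently numbered pieces of the 2 regions at 1 age had a mean of -0.08, with 9 of 44 pairs over 0.1. The main tests between regions took all pieces as independent, and the labels do not say whether same-numbered pieces share an animal. For comparisons of ages the replicate block was the sample number within each region, which links no animals across ages. Members called with it were 23 in duodenum and 24 in ileum in the step from week 2 to week 3, and 29 and 33 from day 0 to week 4. All genes called were 3829 and 5612 in that step, in place of 4014 and 5891. From day 0 to week 4 they were 8729 and 8894, in place of 8909 and 9210. For comparisons of regions the block was the age and number, which pairs same-numbered pieces. Members called with it were 12, 22 and 26 between regions at day 0, week 2 and week 4, and 18 for the interaction. All genes called between regions were 1484, 5044 and 5674, in place of 1342, 4922 and 6234. For the interaction they were 4843 in place of 4930. At week 4 the block also moved the regional differences of Cyp1a1 and Cyp4v3 past the threshold. The 28 members outside the low-count filter were not tested in the main fit. Without that filter 70 members were tested, and 44 were called for an effect of age in duodenum and 45 in ileum. With the filter 40 and 41 were called. All genes called were 13915 in place of 14813 in duodenum and 11926 in place of 12908 in ileum.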
